A study of Mus musculus with 7 samples.

Results

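The 34 genes described here encode proteins of the lysosome, the acidic compartment in which cells break down proteins, sugars and lipids. They comprise 7 cysteine proteases (cathepsins B, C, H, L, S and Z and legumain), 3 other proteases (the carboxypeptidase cathepsin A, the aspartic protease cathepsin D and the peptidase Tpp1), 5 membrane proteins, 7 hydrolases, activators and lipid carriers, 2 regulators and 10 subunits of the vacuolar proton pump. They were picked by name from the 28719 gene symbols in the count tables, and the rule that picks them uses no measured value. All 34 were listed in 4 of the 7 count tables. The tables of run 1 hold only genes with at least 11 unique molecular identifiers (UMIs, each standing for 1 captured transcript) in that library, and listed 33 of the 34 in bone marrow, 32 in blood and 31 in spleen. The calcium channel Mcoln1, the membrane protein Cln8 and the proton pump subunit Atp6v0c were absent from at least 1 of these tables and were too low to be tested between tissues.

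Neutrophils had been sorted as live cells positive for CD11b and Ly6G from male C57BL/6J mice and profiled by droplet-based single-cell RNA-seq. Healthy blood, bone marrow and spleen gave 1 library each in run 1, from mice of 6 weeks, and in run 2, from mice of 8 weeks, so that run and age cannot be told apart. By the study's methods each library pools 3 mice, and within a run the same mice gave all 3 tissues. A further library, from mice of 8 weeks, holds 5 hashtagged conditions, each a pool of 3 mice: healthy blood, blood and joint lavage of mice with arthritis 7 days after the first of 2 intraperitoneal injections of K/BxN serum (days 0 and 2), and lung or peritoneal lavage of mice 3 h after 25 ng of IL-1β given into the nose or the peritoneum. K/BxN serum carries antibodies that cause arthritis in the mice that receive it.

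Healthy cells were kept as neutrophils where the S100a8 and S100a9 transcripts made up at least 3% of UMIs, which left 12755 of 16907 cells, from 1135 to 3672 per library. In the inflammation library the 4852 cells whose ImmGen class was granulocyte were kept, from 292 in the peritoneum to 2857 in the joint. All 15 markers of neutrophils fixed for this check were seen, at 1 UMI or more, in every library and condition. S100a8 with S100a9, which are among the 15, gave 13.8% to 36.0% of UMIs. In the healthy libraries cells were picked by S100a8 and S100a9, so their share there cannot check what the cells are. Summed UMIs per library or condition ranged from 942688 to 10293966. In blood of run 2 the 4 haemoglobin genes checked gave 30259 CPM (UMIs per 1000000 UMIs of the library), against 252 to 910 in the other 5 healthy libraries. Pairs of libraries shared 0 to 36 cell barcodes, under 1% of the smaller library. The cells just under the S100 limit (2% to 3%, 234 cells) had 0.699% of their UMIs in the lysosome genes without Lyz2, and those just above it (3% to 4%, 213 cells) had 0.816%.

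Lysosomal proteases are made as inactive precursors and become active at the low pH that the vacuolar ATPase keeps up by pumping protons into the lumen. In neutrophils some of these proteins, such as lysozyme, are also stored in granules filled during development in the bone marrow, and cathepsin C activates the serine proteases of the azurophil granules. Many lysosome genes carry a motif called CLEAR near their start, which the transcription factor Tfeb, 1 of the 34, can bind.

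To show this motif in its sequence context, the promoters of the genes (250 bases before to 50 after the start of transcription, RefSeq, GRCm38.p6) were searched on both strands. A promoter was found for 28 of the 34. The core CACGTG was found in 9 of the 28 (32.1%), against 8.09% of all 27025 gene symbols with a promoter. The longer TCACGTGA, which contains the core, was in 6 of the 28 (21.4%), against 1.12% of all symbols. The same 8 bases with a G before and a C after them, the longest form searched, were in 0 of the 28, against 0.37% of all symbols. The 6 were Ctsa, Ctsd, Mcoln1, Atp6v0d1, Atp6v0e and Atp6v1a, and Ctsl, Lgmn and Lamp1 held the core without the longer form. A match is a description of the letters, and binding was not measured. Below are 100 bases around the motif, given in capitals, for 3 cathepsins and a pump subunit that were called in at least 1 comparison. They are Ctsa (chr2:164833714-164833813, plus strand), Ctsd (chr7:142387873-142387972, minus strand), Ctsl (chr13:64370671-64370770, minus strand) and Atp6v1a (chr16:44139338-44139437, minus strand). The Ctsd window lies just upstream of the annotated gene, whereas those of Ctsa, Ctsl and Atp6v1a belong to starts inside it.
Ctsa: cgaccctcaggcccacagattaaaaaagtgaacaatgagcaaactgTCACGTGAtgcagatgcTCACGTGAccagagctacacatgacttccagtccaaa
Ctsd: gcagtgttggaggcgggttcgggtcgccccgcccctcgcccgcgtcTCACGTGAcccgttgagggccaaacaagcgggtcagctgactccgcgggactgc
Ctsl: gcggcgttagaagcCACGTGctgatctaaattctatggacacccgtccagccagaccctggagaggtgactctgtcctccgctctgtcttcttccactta
Atp6v1a: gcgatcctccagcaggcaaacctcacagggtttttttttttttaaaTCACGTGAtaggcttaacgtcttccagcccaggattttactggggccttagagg
Ctsa holds the longer motif at 2 places in this window and Ctsd at 1 place, 99 bases before its start.

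Together the 34 genes took a larger share of UMIs in bone marrow than in blood, but most of that share came from 1 gene, Lyz2 (lysozyme, which cleaves the bacterial cell wall). The summed share of all 34 in run 1 was 2.31% of UMIs in bone marrow, 1.203% in blood and 2.27% in spleen. In run 2 it was 1.63%, 0.891% and 0.931% in the same order. Without Lyz2 the order turned. The other 33 genes gave 0.324% (bone marrow), 0.588% (blood) and 0.382% (spleen) in run 1, and 0.340%, 0.641% and 0.593% in run 2. Both bone marrow libraries lay below all blood and spleen libraries, and the spleen of run 1 lay near bone marrow while that of run 2 lay between the blood libraries. Without cells with at least 2 UMIs of 14 monocyte and macrophage markers, a step that removed most bone marrow cells, the spleen of run 1 moved to 0.607%, nearer to blood (0.667% and 0.650%) than to bone marrow (0.412% and 0.398%). With 11 of these markers it was 0.379%, against 0.319% and 0.336% in bone marrow. With granule and S100 UMIs left out of the total, the shares were 0.599% and 0.592% in bone marrow and 0.814% and 0.784% in blood, so that the gap was narrower and its direction the same. These shares are sums over the chosen genes and were given no test. Secondary granule transcripts (Camp, Ngp, Ltf and Chil3), which mark neutrophils early in maturation, ran in the reverse order of the share without Lyz2. They took 9.86%, 2.37% and 9.71% of UMIs in run 1 (bone marrow, blood, spleen) and 7.13%, 0.316% and 1.56% in run 2.

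**Figure D1:**
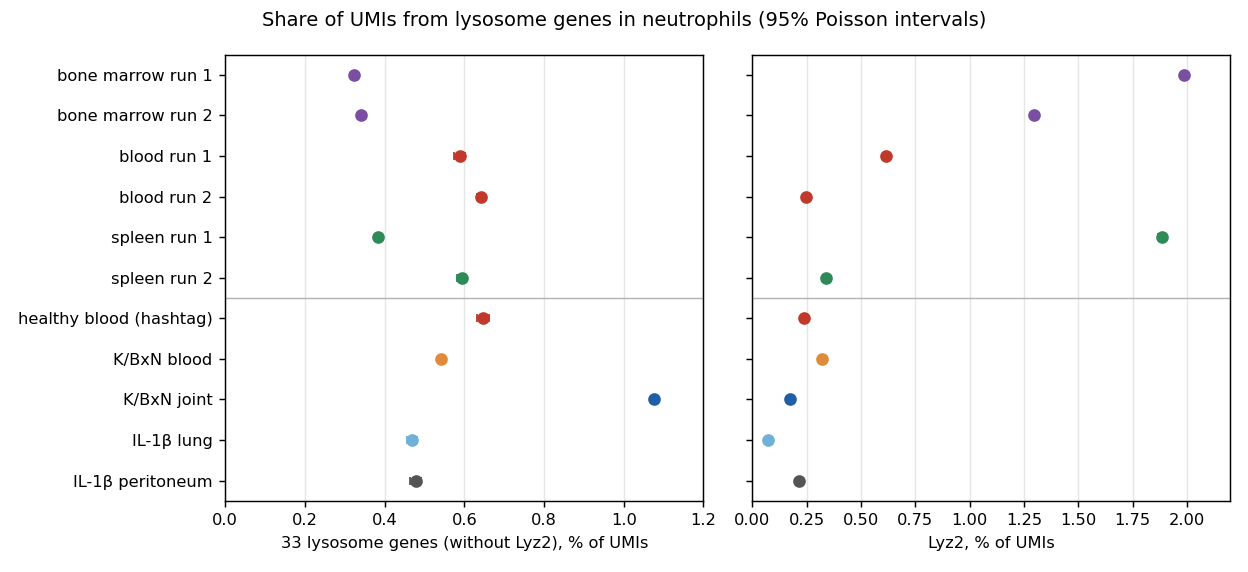
Share of UMIs (x axis, percent) from the 33 lysosome genes without Lyz2 (left) and from Lyz2 (right) in each healthy library and hashtagged condition, with exact 95% Poisson intervals that are mostly narrower than the points. The K/BxN joint lies farthest right on the left panel at 1.08%, and the bone marrow libraries lie farthest left.

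In the inflammation library the share without Lyz2 was 0.646% in healthy blood, 0.543% in K/BxN blood, 1.08% in the K/BxN joint, 0.469% in the IL-1β lung and 0.478% in the IL-1β peritoneum. Healthy blood of this library was close to the 0.588% and 0.641% of the other blood libraries, although the chemistry differed by the study's methods. By role, the cysteine proteases were at 0.0378% of UMIs in healthy blood, 0.0327% in K/BxN blood, 0.159% in the joint, 0.0649% in lung and 0.0779% in peritoneum. The hydrolases, activators and carriers other than Lyz2 were at 0.220% in healthy blood, 0.150% in K/BxN blood, 0.203% in the joint, 0.0614% in lung and 0.0594% in peritoneum. For these the joint thus lay below healthy blood and above K/BxN blood. Each condition is 1 pool of mice, so that these differences had no replicate check.

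Blood was compared with bone marrow to ask which of the genes differ between neutrophils in the circulation and at their place of origin. Of the 31 genes tested, 10 were higher in blood, 1 was lower and 20 passed in neither direction, by edgeR's quasi-likelihood test on counts summed per library, with the run as a block and Benjamini-Hochberg adjustment over all 7667 genes at an FDR of 0.05. Of all genes, 12.0% were higher and 10.1% lower. The median log2 difference was 0.48 over the 31 genes and -0.03 over all genes. Scaled by library size alone, which moves the median of all genes by 0.28, 67.2% of the called genes were higher in place of 54.3%, and the counts over the 31 were the same. The 10 were Gm2a, Ctsa, Ctss, Cd68, Man2b1, Ctsd, Ctsz, Tfeb, Atp6ap1 and Psap, and the 1 that fell was Lyz2.

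Among the cysteine proteases, Ctss and Ctsz passed. Ctss, a cathepsin that stays active at neutral pH, was at 11.3 and 14.5 CPM in bone marrow, 80.1 and 96.8 in blood, and 27.5 and 94.6 in spleen (runs 1 and 2). Both blood libraries lay above both bone marrow libraries, by 2.51 ± 0.31 on the log2 scale (SE; edgeR adjusted p = 0.00405). Ctsz, a carboxypeptidase, was at 51.6 and 43.1 in bone marrow, 124 and 106 in blood, and 67.0 and 107 in spleen, a log2 difference of 1.00 ± 0.22 between blood and bone marrow (edgeR adjusted p = 0.0208). The other members of this class did not pass. Ctsb was at 71.8 and 59.1 CPM in bone marrow and at 109 and 135 in blood, with a log2 difference of 0.62 ± 0.23. Ctsh was at 108 and 98.2 in bone marrow and at 84.6 and 85.3 in blood, with a difference of -0.55 ± 0.25. Ctsl was low in both tissues, at 5.89 and 5.27 in bone marrow and 6.62 and 13.2 in blood, and the libraries of Ctsc overlapped (8.48 and 12.4, against 11.0 and 10.3). Lgmn was at 1.41 and 3.19 CPM in bone marrow and at 5.15 and 5.74 in blood, with an SE of 0.79 on a difference of 1.02.

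Of the other proteases, Ctsa and Ctsd passed. Ctsa, which also protects lysosomal glycosidases in a complex, was at 12.5 and 17.7 CPM in bone marrow, 113 and 119 in blood, and 52.8 and 120.1 in spleen. Blood exceeded bone marrow by 2.67 ± 0.26 (log2, SE; edgeR adjusted p = 0.00216). Ctsd rose from 282 and 302 in bone marrow to 790.4 and 747 in blood, with 400.4 and 576 in spleen, and the log2 difference between blood and bone marrow was 1.11 ± 0.22 (edgeR adjusted p = 0.0140). Tpp1 was low, at 8.24 to 8.95 in bone marrow and 11.5 to 13.97 in blood, and did not pass.

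Gm2a, the activator that presents the ganglioside GM2 to hexosaminidase A, differed most. It was at 32.0 and 39.5 CPM in bone marrow, 395 and 596 in blood, and 129.9 and 504.5 in spleen. The difference between blood and bone marrow was 3.48 ± 0.33 on the log2 scale (edgeR adjusted p = 0.00216), whereas Hexa, the subunit it serves, was at 82.6 and 76.2 in bone marrow and 134 and 90.8 in blood and did not pass. Man2b1, a mannosidase, rose from 49.4 and 55.5 to 179 and 127, and Psap, the precursor of the saposins that help degrade sphingolipids, from 247 and 308 to 532 and 599.5. Cd68, a heavily glycosylated membrane protein, was at 19.8 and 23.3 in bone marrow and 83.1 and 84.7 in blood, a difference of 1.68 ± 0.23 (edgeR adjusted p = 0.00493). Lyz2 was the exception. It was at 19857 and 12943 CPM in bone marrow, 6149 and 2497 in blood, and 18853 and 3378 in spleen, and its difference between blood and bone marrow was -2.40 ± 0.53 (edgeR adjusted p = 0.0208).

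Of the 2 regulators, Tfeb rose from 20.5 and 22.1 CPM in bone marrow to 62.5 and 41.4 in blood (log2 difference 0.95 ± 0.26, edgeR adjusted p = 0.0393), and Sqstm1, the autophagy receptor p62, was at 28.0 and 33.5 against 54.4 and 52.0 and did not pass (0.50 ± 0.23). Among the 9 proton pump subunits tested, 1 passed. This was Atp6ap1, an accessory subunit, with 71.6 and 90.7 in bone marrow and 179 and 187 in blood (log2 difference 0.90 ± 0.20, edgeR adjusted p = 0.0226). The calls of Tfeb and Psap were each lost in 7 of 16 alternatives. The 7 subunits of the V0 and V1 sectors that were tested ranged from -0.42 to 0.64 in log2 difference.

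**Figure D2:**
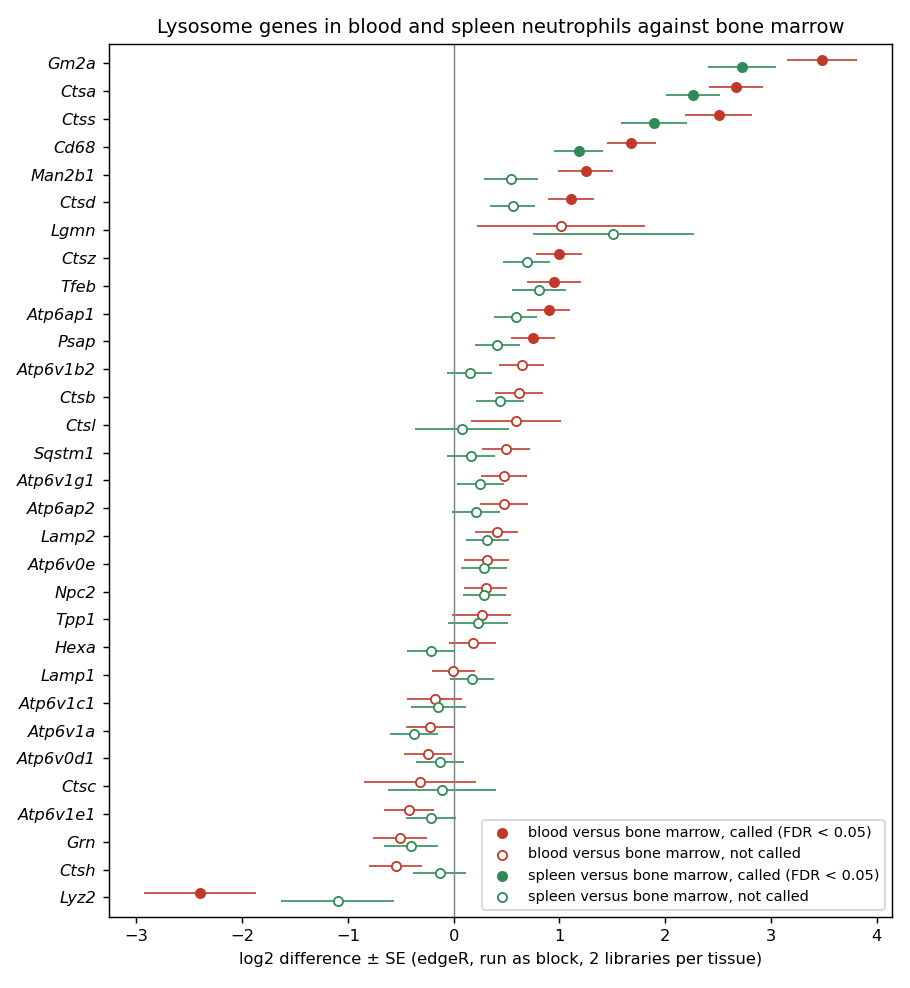
Log2 difference from bone marrow (x axis, ± SE) of the 31 lysosome genes tested, in blood (red) and spleen (green), 2 libraries per tissue. Filled points passed an FDR of 0.05. In blood Gm2a, Ctsa and Ctss lie farthest right, above 2.5, and Lyz2 farthest left.

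In spleen against bone marrow, 4 of the 31 genes were higher and 0 lower, where 2.23% and 0.522% of all 7667 genes were called, 2.75% in all (81.0% of the called genes were higher, and 91.5% with scaling by library size alone). The 4 were Gm2a (log2 difference 2.73 ± 0.32), Ctsa (2.26 ± 0.25), Ctss (1.90 ± 0.31) and Cd68 (1.18 ± 0.23), with edgeR adjusted p-values of 0.0153, 0.0137, 0.0307 and 0.0471. The call of Cd68 was lost in 10 of 16 alternatives. Cd68 was at 39.1 and 75.1 CPM in spleen. For all 4 genes the spleen library of run 1 was the lower of the pair, and both spleen libraries exceeded both bone marrow libraries. The 4 were picked by their calls, and the share of all genes with such a separation was not counted. Spleen and blood were not told apart for any of the 31 genes by edgeR, nor by DESeq2, while 4 of the 31 had an unadjusted p under 0.05 in edgeR, and 4 of all 7667 genes (0.0522%) were called, all lower in spleen. These comparisons share the same bone marrow and blood libraries.

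The calls between tissues rest on few libraries. With either blood library left out, only 1 blood library remains. The calls of the 31 genes between blood and bone marrow were then lost, as were nearly all calls over all genes. The log2 difference of Gm2a stayed at 3.35 and 3.58. Without the run as a block 1 of the 31 genes passed (Ctsa), where 1.3% of all 7667 genes were higher and 1.32% lower. Between spleen and bone marrow all calls, over these genes and over all genes, were lost without either blood library or without the block. In bone marrow 16 and 38 cells with at least 2 UMIs of 11 macrophage markers (1.33% and 1.11% of cells) held 39.6% and 40.2% of the Ctss, 44.4% and 22.1% of the Ctsc and 66.7% and 24.1% of the Lgmn UMIs, against 2.94% and 1.62% of all UMIs. With such cells left out of every library, the difference between blood and bone marrow was 2.97 for Ctss and 3.56 for Gm2a.

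To see whether the genes change as neutrophils mature, cells of each healthy library were split by the share of UMIs from Camp, Ngp, Ltf and Chil3: an immature range at 5% or more, a middle range, and a mature range under 1%. The ranges are bands of a score and not cell types, and in bone marrow 86 and 235 cells lay between 4% and 6%. In run 1 the immature range held 608 cells of bone marrow, 451 of spleen and 121 of blood, and in run 2 it held 1103, 54 and 22. Levels below are CPM over the UMIs without these 4 genes, summed per range and library. Of 28 genes tested, 16 were higher in the mature range and 3 lower, by edgeR's quasi-likelihood test with the library as a block. Libraries of the same run share mice, so the blocks are not independent pools. Of all 4713 genes tested, 28.0% were higher and 26.2% lower, and the median log2 difference was 0.63 over the 28 and 0.01 over all. Scaled by library size alone, 19 of the 28 were higher and 2 lower, against 32.5% and 19.5% of all genes, and 62.5% of all called genes were higher in place of 51.7%.

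Gm2a again had the widest gap. Over the 6 libraries it ranged from 12.6 to 25.0 CPM (median 19.9) in the immature range and from 95.6 to 619 (median 514) in the mature range, a log2 difference of 3.49 ± 0.23 (edgeR adjusted p = 1.32e-11). The ranges did not overlap in any library, and the bone marrow libraries were the lowest of the mature values. Ctss went from a median of 7.35 (0 to 20.01) to 101 (30.9 to 106), or 2.62 ± 0.31 (edgeR adjusted p = 1.54e-07). Cd68 went from a median of 12.9 (9.33 to 18.8) to 86.1 (45.4 to 118), or 2.41 ± 0.21 (edgeR adjusted p = 9.55e-10).

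Ctsa, Ctsd and Ctsc were the other cathepsins with a log2 difference over 1. Ctsa was at 11.3 to 20.01 CPM in the immature and 29.6 to 187 in the mature range (2.25 ± 0.27, edgeR adjusted p = 1.93e-07). Ctsd was at 126 to 215 and then at 560.3 to 1056 (1.94 ± 0.15, edgeR adjusted p = 1.09e-10), so that each library of the mature range exceeded each of the immature range more than 2-fold. Ctsc was low, at 0 to 7.43 and 9.603 to 27.2 (1.87 ± 0.39, edgeR adjusted p = 0.000308). Without the cells with macrophage markers (11 markers, an alternative chosen after seeing the data) Ctsc was below the count filter and not tested, and the difference of Ctss was 2.51. Ctsc was also not tested with 14 such markers, without the bone marrow library of run 2 or without the spleen library of run 2. With 11 markers 15 of 27 genes were higher and 4 lower, where 1316 and 1248 of all 4532 genes were. Ctsz rose less, by 0.91 ± 0.21. Ctsb did not pass (0.30 ± 0.19, with 37.9 to 93.8 in the immature and 59.4 to 141 in the mature range). Ctsh, an aminopeptidase, went the other way, from 88.5 to 155 in the immature range to 76.8 to 95.8 in the mature range (-0.73 ± 0.16, edgeR adjusted p = 0.000475).

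Psap rose by 1.45 ± 0.14 and Tfeb by 1.45 ± 0.22 on the log2 scale. Man2b1 (1.15 ± 0.19), Sqstm1 (0.69 ± 0.20), the cholesterol carrier Npc2 (0.57 ± 0.16) and the membrane protein Lamp2 (0.41 ± 0.15) also passed. Of the proton pump, Atp6v1b2 and Atp6v1g1 of the V1 sector, which binds and splits ATP, rose by 0.98 ± 0.15 and 0.94 ± 0.13, and the accessory subunit Atp6ap1 by 0.95 ± 0.19, whereas Atp6v1e1 fell by 0.36 on the log2 scale (SE 0.13, edgeR adjusted p = 0.0275). The call of Atp6v1e1 was lost in 9 of 15 alternatives and that of Lamp2 in 7 of 15. Atp6v0d1 and Atp6v0e of the membrane sector V0 had differences of -0.02 ± 0.14 and 0.27 ± 0.14. Lyz2 fell from a median of 17029 (11648 to 27485) to 5091 (1845 to 16442), by 2.00 on the log2 scale (SE 0.28, edgeR adjusted p = 2.35e-06). Within the bone marrow libraries alone, 17 of 30 genes were higher and 1 lower, against 21.3% and 18.9% of all genes. In the 3 libraries with at least 400 immature cells, an alternative chosen after seeing the data, 16 of 30 were higher and 2 lower, against 1309 and 1263 of all 6308 genes.

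**Figure D3:**
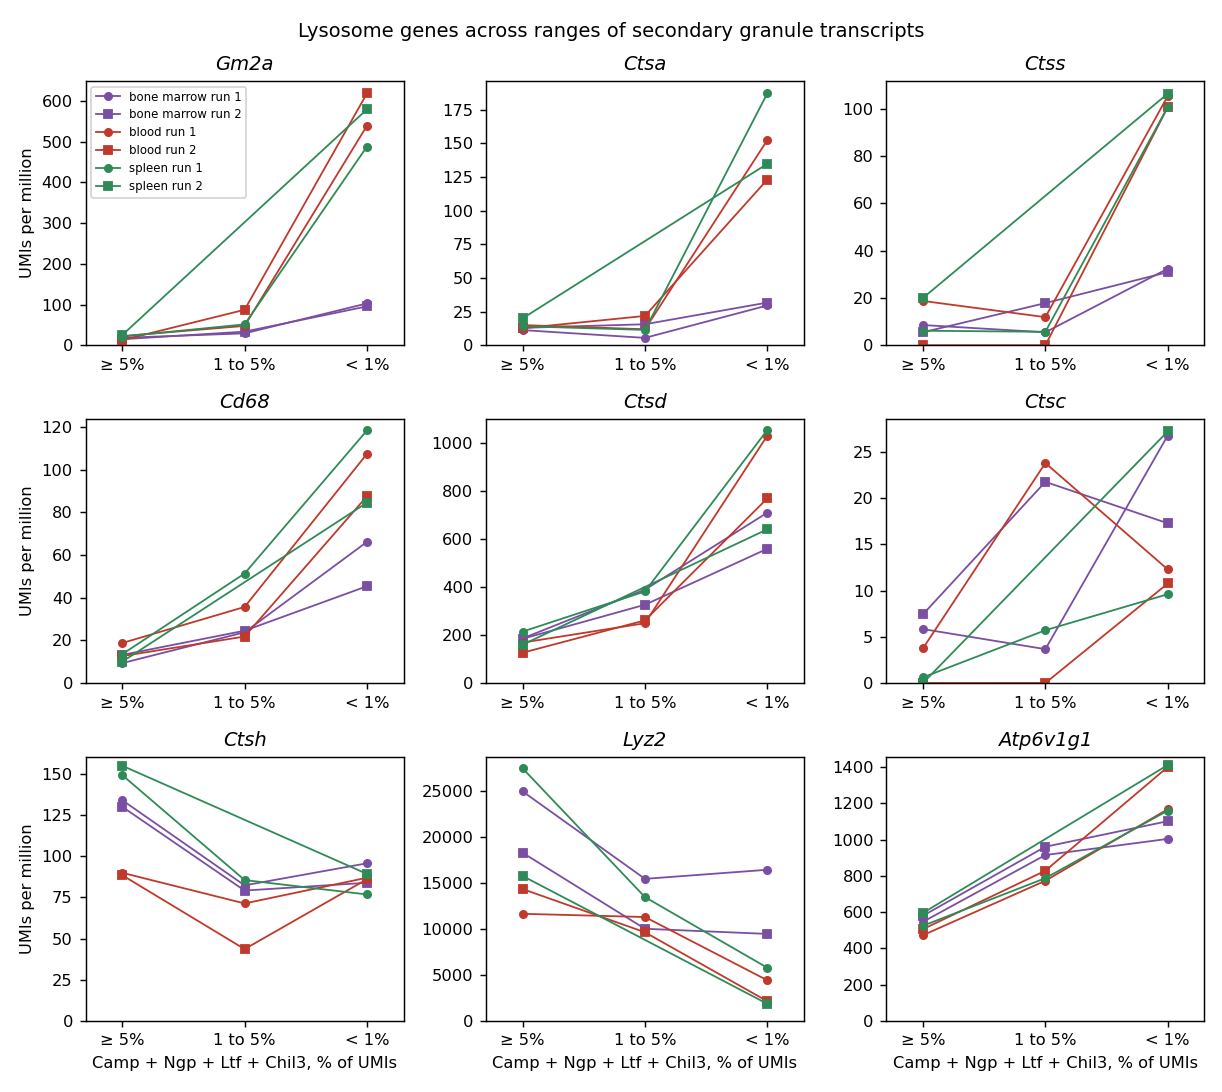
CPM, without Camp, Ngp, Ltf and Chil3 in the total (y axis), of 9 lysosome genes in cells at or above 5%, from 1% to 5% and under 1% of secondary granule UMIs (x axis). Lines join the ranges of 1 library (circles run 1, squares run 2). The middle range of spleen run 2 (16 cells) is left out. At under 1%, Gm2a and Ctsa are lower in the bone marrow libraries than in those of blood and spleen.

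Since bone marrow holds more immature cells, the mature range alone was also compared between blood and bone marrow. Here 3 of the 31 genes were higher in blood and 2 lower, against 6.03% and 6.23% of all 5983 genes tested, and the median log2 difference was 0.13 over the 31 and 0.01 over all. Gm2a was at 103 and 95.6 CPM in mature-range bone marrow and at 539 and 619 in blood (2.19 ± 0.21, edgeR adjusted p = 0.000108). Ctsa was at 29.6 and 31.7 against 152 and 123 (1.72 ± 0.24, edgeR adjusted p = 0.000857), and Ctss at 32.4 and 30.9 against 105 and 101 (1.33 ± 0.21, edgeR adjusted p = 0.00199). For these 3 genes, picked by their calls, the libraries of blood and bone marrow did not overlap. The share of all genes without overlap was not counted. Spleen libraries of the same range were at 488 and 580 for Gm2a, 187 and 135 for Ctsa, and 101 and 106 for Ctss.

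The lower genes of this comparison were Lyz2, with 16442 and 9459 CPM in bone marrow and 4408 and 2128 in blood (-2.40 ± 0.26, edgeR adjusted p = 0.000240), and Grn, which encodes progranulin, with 111 and 99.2 against 86.0 and 66.4 (-0.86 ± 0.20, edgeR adjusted p = 0.0175). The call of Grn was lost in 5 of 9 alternatives, among them DESeq2 and the fit without the run as a block. That fit kept the call of Gm2a and lost those of Ctsa, Ctss and Lyz2 as well (edgeR adjusted p = 0.0553, 0.0633 and 0.116). Ctsd, which differed between the tissues over all cells, was at 711 and 560.3 against 1033 and 771 and did not pass here (0.13 ± 0.22). Neither did Cd68 (0.48 ± 0.20), Psap (0.03 ± 0.22) or Tfeb (0.21 ± 0.23). Whether these tissue differences themselves differ between the mature range and all cells was not tested. With 2 libraries per tissue, simulated 2-fold changes were called in 31% of cases in this comparison and in 13% over all cells, so that genes which did not pass may still differ.

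**Figure D4:**
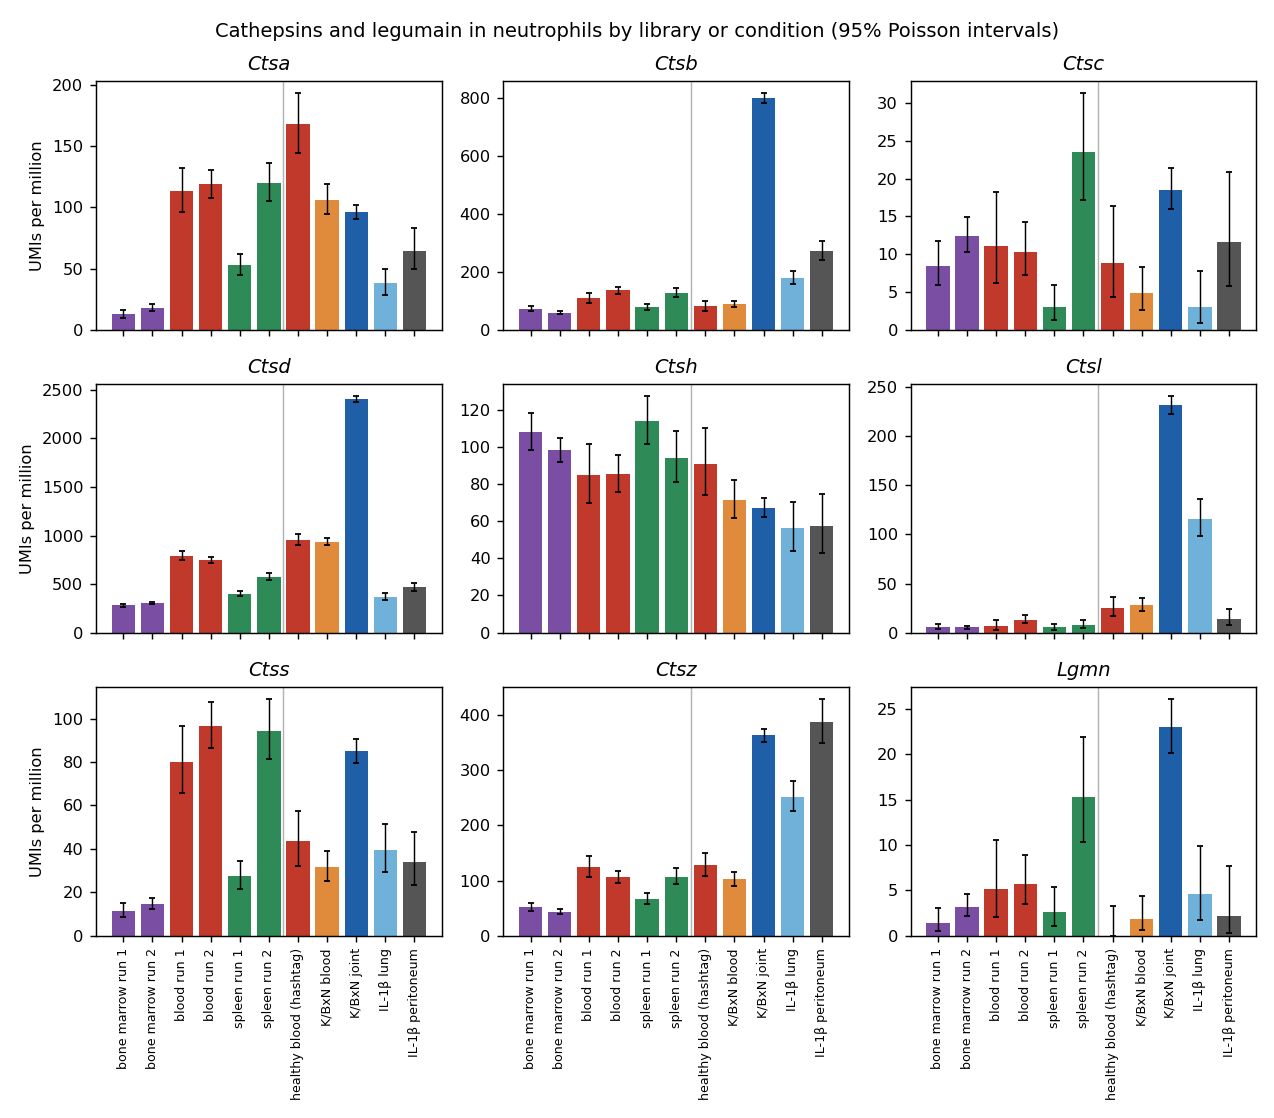
Level of 8 cathepsins and legumain (y axis, CPM, axis from 0 in each panel) in the 6 healthy libraries, left of the line, and the 5 conditions of the inflammation library, right of it. Bars are sums over cells with exact 95% Poisson intervals. Ctsa and Ctss are lowest in bone marrow, and Ctsb, Ctsd and Ctsl are highest in the K/BxN joint.

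The inflamed sites were compared with healthy blood of the same library to ask how the genes differ in neutrophils that have entered a tissue. The 4 comparisons share this reference. There is 1 pool of mice per condition, so no test was made. Intervals of a fold are exact 95% intervals and cover counting error only, and a gene is counted as different at 2-fold or more with at least 50 UMIs in both conditions together. In blood of mice with arthritis, 0 of 29 genes were past 2-fold in either direction, with folds from 0.606 for Gm2a to 1.35 for Lyz2 (background 0.691% higher and 6.30% lower). Ctsb, Ctsd and Ctsl stood at 1.07-fold, 0.974-fold and 1.13-fold of healthy blood, and the fold of Ctsd is above 1 after the TMM scaling described next.

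In the K/BxN joint 15 of 33 genes were higher and 2 lower, against 10.6% and 23.0% of all 6707 genes. The joint holds more UMIs than healthy blood, and the minimum of 50 UMIs is over both. Of the 15, Lgmn (0 UMIs in healthy blood), Atp6v0c (6), Ctsc (10), Tpp1 (23), Ctsl (28) and Atp6v1c1 (45) reached it only with the UMIs of the joint. The same minimum applies to all genes. The median log2 fold was 0.76 over the 33 genes and -0.44 over all. After scaling by TMM factors, which centre the bulk of the genes, the counts were 19 higher and 0 lower, against 16.1% and 9.32% of all genes, with medians of 1.195 and -0.01. The direction of the higher genes did not depend on the scaling, whereas the 2 lower genes, Man2b1 (0.439-fold) and Gm2a (0.498-fold), lay within 2-fold after TMM scaling at 0.591 and 0.671.

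The cysteine proteases gave the widest gaps of the joint. Ctsb, an endopeptidase and carboxypeptidase, was at 81.8 CPM in healthy blood, 87.6 in K/BxN blood, 801 in the joint, 179 in lung and 272 in peritoneum, so that the joint was 9.797-fold above healthy blood (95% interval 7.98 to 12.2, or 13.2-fold after TMM scaling). Ctsl, another endopeptidase, was at 24.9, 28.2, 232, 116 and 13.8 in the same order, and its fold in the joint was 9.31 (6.43 to 14.04). Lgmn, the asparaginyl protease that processes other cathepsins, was at 23.0 in the joint and had 0 of 1124877 UMIs in healthy blood, which gives a fold of at least 8.63 against a floor of 3 UMIs in healthy blood, or 6.97 as the exact 95% lower limit that also covers the counting error of the joint. All 3 genes were thus low in both blood samples and high in the joint.

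Ctsz (128 in healthy blood, 364 in the joint) was 2.84-fold higher and Ctsc 2.09-fold higher, the latter with an interval of 1.11 to 4.42 on 10 UMIs in healthy blood. Ctss was at 43.6 and 84.9 CPM, a fold of 1.95 that passed 2-fold only after TMM scaling (2.62), and Ctsh at 90.7 and 67.2, a fold of 0.741. Ctsd was at 958 in healthy blood and 2409 in the joint, 2.51-fold higher (2.36 to 2.67). Ctsa did not share this pattern, with 168 and 96.1 and a fold of 0.572. The cathepsins highest in blood against bone marrow, Ctsa and Ctss, were therefore not those with the widest gap in the joint, where Ctsb and Ctsl had not passed between blood and bone marrow. Whether the contrasts differ was not tested.

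Of the membrane proteins, Lamp2, which guards the lysosomal membrane and serves chaperone-mediated autophagy, was at 236 CPM in healthy blood and 830 in the joint, 3.51-fold higher (3.11 to 3.98), and Cd68 at 96.0 and 235, 2.45-fold higher. Sqstm1 was 2.09-fold higher, while Tfeb was at 73.8 and 62.7. Of the proton pump, Atp6v1a, Atp6v1c1 and Atp6v1e1 of the V1 sector, Atp6v0c of the V0 ring and the accessory subunit Atp6ap2 were 2.104-fold to 2.55-fold higher, that of Atp6v0c on 6 UMIs in healthy blood. The remaining subunits lay within 2-fold: Atp6v1b2 at 0.959, Atp6v1g1 at 0.997, Atp6ap1 at 1.02, Atp6v0e at 1.59 and Atp6v0d1 at 1.70. Of these, Atp6v0e and Atp6v0d1 passed 2-fold after TMM scaling (2.14 and 2.29). Against K/BxN blood, which comes from mice with the same treatment, 18 of 33 genes were higher in the joint and 0 lower, before and after TMM scaling, with 14.1% and 8.09% of all genes past 2-fold. Of the 18, Lgmn, Mcoln1, Atp6v0c, Ctsc and Tpp1 had under 50 UMIs in K/BxN blood (5, 12, 12, 13 and 46). There the folds were 12.4 for Lgmn (5.24 to 38.5), 9.14 for Ctsb, 8.21 for Ctsl and 3.09 for Lamp2.

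At the IL-1β sites the shares of the genes past 2-fold on the CPM scale were near those of all genes. In lung 4 of 28 genes were higher and 13 lower, against 12.4% and 44.1% of all 3968 genes, and after TMM scaling 9 were higher and 5 lower, against 25.3% and 16.3%. In peritoneum 3 of 27 were higher and 12 lower, against 12.1% and 45.4% of all 3709 genes, and after TMM scaling 7 and 5, against 25.5% and 15.1%. Scaling moved the median log2 fold of all genes from -0.84 to 0.12 in lung and from -0.87 to 0.13 in peritoneum, so folds are given next on both scales.

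Ctsb was higher at both sites, 2.18-fold in lung and 3.32-fold in peritoneum (4.23 and 6.65 after TMM scaling). So was Sqstm1, with 71.1 CPM in healthy blood, 159 in lung and 315 in peritoneum, or 2.24-fold and 4.43-fold (4.33 and 8.88 after TMM scaling). Lamp2 was 2.08-fold higher in lung and 1.96-fold in peritoneum (4.03 and 3.92). Ctsl was 4.65-fold higher in lung (3.10 to 7.23, and 9.01 after TMM scaling). In peritoneum 13 UMIs of Ctsl gave a fold of 0.554 with an interval of 0.263 to 1.11, and its direction turned with TMM scaling (1.11-fold). Ctsz was 3.03-fold higher in peritoneum and 1.97-fold in lung (6.08 and 3.81). Gm2a, Hexa, Grn and Tfeb were lower at both sites and under both scalings. Gm2a was at 763 CPM in healthy blood, 135 in lung and 133 in peritoneum, or 0.177-fold and 0.174-fold (0.342 and 0.348 after TMM scaling). Hexa was at 129.8, 19.7 and 13.8, or 0.152-fold and 0.106-fold (0.294 and 0.213). Grn, at 113, 25.7 and 27.6, was 0.228-fold and 0.244-fold, and close to the 2-fold limit after TMM scaling (0.441 and 0.489). Tfeb, at 73.8, 11.4 and 17.0, was 0.154-fold and 0.230-fold (0.298 and 0.461). On both scales Hexa, Tfeb and Gm2a had the lowest folds in lung, and Hexa and Gm2a in peritoneum. Ctsa was 0.225-fold in lung and 0.385-fold in peritoneum (0.436 and 0.772 after TMM scaling, the latter within 2-fold).

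**Figure D5:**
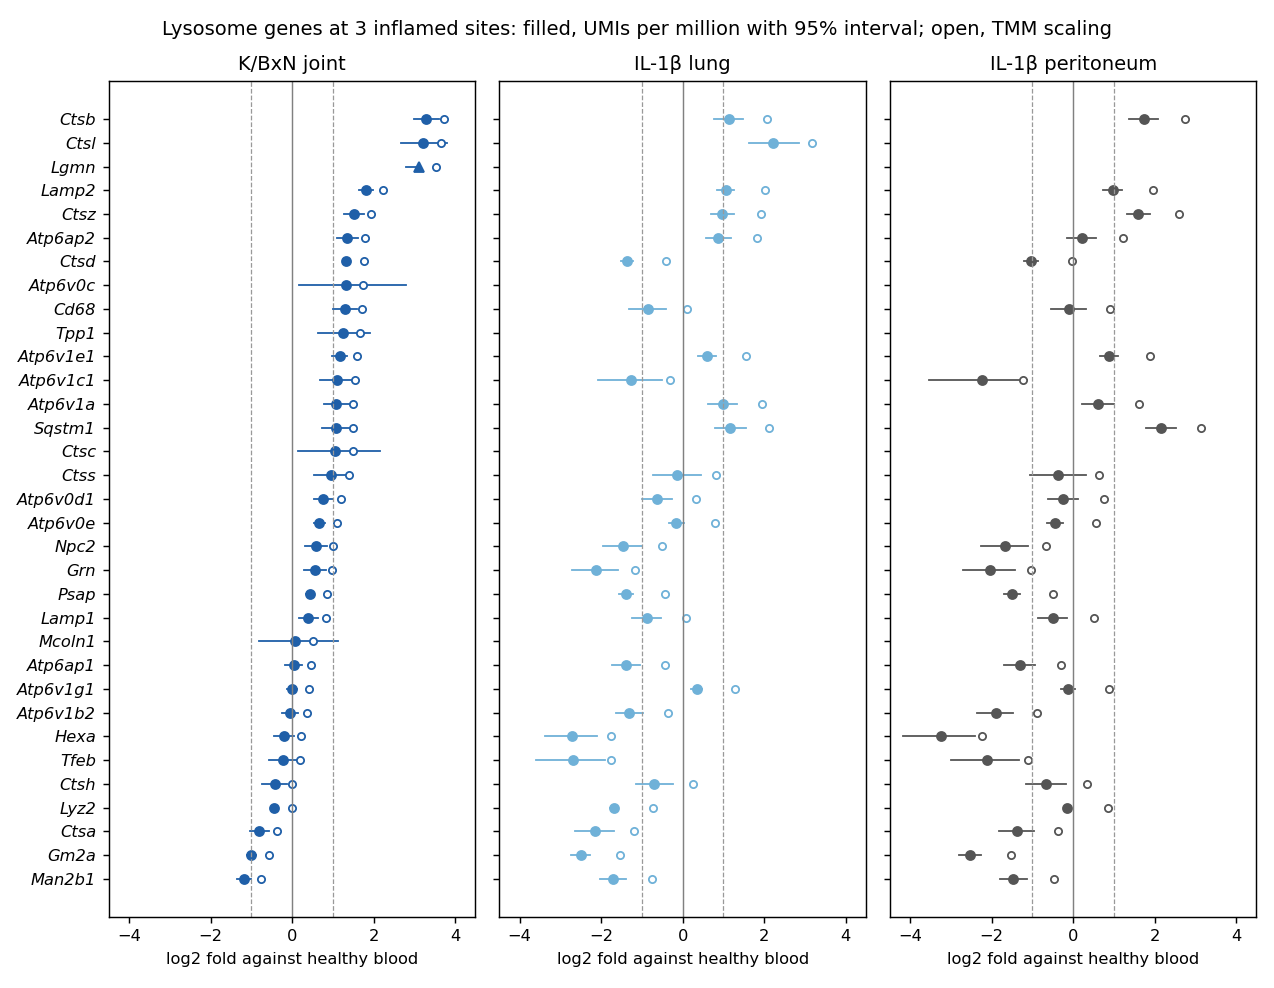
Log2 fold over healthy blood of the same library (x axis) of the lysosome genes in the K/BxN joint, the IL-1β lung and the IL-1β peritoneum. Filled points are on the CPM scale, with exact 95% intervals for counting error, and open points are after TMM scaling. Each condition is 1 pool of mice. Ctsb and Ctsl lie far right in the joint, and Gm2a and Hexa lie far left in lung and peritoneum.

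Of 14 markers of monocytes and macrophages, 11 were summed after the levels of Ly6c2, Csf1r and Adgre1 had been seen. The 11 summed to 26.2 CPM in the joint, with 11 of 11 seen, against 5.33 (4 of 11) in healthy blood, 4.46 in K/BxN blood, 9.84 in lung and 9.55 in peritoneum. The 3 left out did not follow that order. Csf1r was at 166 CPM in healthy blood and 80.4 in the joint, Adgre1 at 44.4 and 32.1 with 157 in peritoneum, and Ly6c2 at 66.7 and 164 with 195 in lung. The 44 joint cells with at least 2 such UMIs (1.54%) held 1.95% of the Ctsb, 1.26% of the Ctsl, 1.67% of the Ctsd and 7.78% of the Ctss UMIs, and 1.75% of all UMIs. Without them 15 genes were again higher and 2 lower.

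A further 63 lysosome genes were counted for comparison. Between blood and bone marrow 7 of 49 tested were higher (14.3%, against 12.0% of all genes) and 3 lower (6.12%, against 10.1%), among the higher ones the thioesterase Ppt1 (log2 difference 2.22) and the membrane protein Scarb2 (1.84). In the joint 11 of 50 were higher and 9 lower on the CPM scale, where 10.6% and 23.0% of all genes were, with the galactosidase Gla at 16.6-fold. After TMM scaling 15 were higher and 5 lower, against 16.1% and 9.32%. In lung 2 of 30 were higher and 14 lower, where 12.4% and 44.1% of all genes were, and after TMM scaling 7 and 6, against 25.3% and 16.3%. In peritoneum 1 of 27 was higher and 17 lower, where 12.1% and 45.4% of all genes were, and after TMM scaling 4 and 7, against 25.5% and 15.1%.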

How the data were processed

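The authors processed the reads with Cell Ranger on mm10 (per the labels) and deposited UMI counts per gene and cell, 1 table per library, and a table of cells that gives condition and ImmGen class (unit other). No normalization had been applied to the deposited counts. Each library pools 3 mice by the study's methods, so p-values measure the spread between pools. Genes not listed in a run 1 table were set to 0. Doublets were not called again. Counts were summed per library, condition or range, and levels are CPM, UMIs per 1000000. Tests used edgeR 4.0.16 (R 4.3.3, TMM factors, quasi-likelihood) with run as a block for tissues and library as a block for ranges, at an FDR of 0.05 over all genes, with all healthy libraries sharing 1 estimate of the spread. DESeq2 1.42.0 was an alternative. The block rests on tissues of a run coming from the same mice: deviations of the libraries of a run from their tissue means correlated at 0.514, 0.57 and 0.465 over 7667 genes. Conditions of the inflammation library were compared by ratio with exact 95% intervals, and intervals and floors cover counting error only. Summed UMIs per library or condition, from 942688 to 10293966, set the precision. Coordinates are of GRCm38.p6, the build named mm10. The scripts were tested on simulated data. The genes, the lists and the rule for the genes named (all 34) were chosen with earlier results of these data known. Alternatives are in the closing section.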

Additional observations from a re-analysis of the deposited data

Results flagged for a closer look

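Ctsd and Atp6v1c1 moved past 2-fold in opposite directions at different sites against healthy blood. Ctsd was 2.51-fold in the K/BxN joint, 0.388-fold in the IL-1β lung and 0.488-fold in the IL-1β peritoneum. Atp6v1c1 was 2.16-fold, 0.416-fold and 0.212-fold. The difference between sites was not tested, since each condition is 1 pool of mice, and the comparisons share their reference. After TMM scaling the values were 3.39, 0.751 and 0.978 for Ctsd and 2.91, 0.806 and 0.425 for Atp6v1c1.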

How the results depend on the processing

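Of the counts and shares that answer a comparison, 198 alternative values stayed within the limits set for a change and 51 moved. Without the replicate block 1 gene was higher and 0 lower between blood and bone marrow, against 1.3% and 1.32% of all genes. Between spleen and bone marrow 0 were higher, against 0.0% of all genes. In the mature range 1 was higher and 0 lower, against 0.184% and 0.217%. Leaving out 1 library gave 0 to 12 higher and 0 to 2 lower between blood and bone marrow (6 without either bone marrow library, 0 without either blood library, while the calls over all genes ranged from 0 to 2518), 0 to 5 higher and 0 to 1 lower between spleen and bone marrow (0 to 990 over all genes), 0 to 1 higher (Lyz2) and 0 to 1 lower (Gm2a) between spleen and blood, 14 to 17 higher and 2 to 4 lower between ranges, and 3 to 4 higher and 1 to 3 lower in the mature range. With 1 library left out, the calls over all genes ranged from 2128 to 2890 between ranges. In the mature range 6.62% of all genes were higher and 6.94% lower without the spleen library of run 1. Without that of run 2 the shares were 10.2% and 10.5%. The other fits of the mature range keep 1 pool in a tissue, so their shares are left out. DESeq2 gave 1 lower in the mature range (2.64% of all genes). Bone marrow libraries alone gave 1 lower between ranges (18.9%). Leaving out cells with macrophage markers (14 markers, which removed most bone marrow cells) gave 2 lower between spleen and bone marrow (6.5% of all genes) and 1 lower between ranges (13.6%). It also gave 1 lower each in K/BxN blood (5.02%) and the joint (23.1%). TMM factors gave 0 lower in the joint, 9 higher and 5 lower in lung, and 7 and 5 in peritoneum. A 1.5-fold limit gave 5 lower in K/BxN blood (28.2% of all genes), 8 higher in lung (17.1%), 6 higher in peritoneum (16.4%) and 1 lower in the joint against K/BxN blood (20.1%), and a minimum of 20 UMIs gave 1 lower in K/BxN blood (11.3%). The share without Lyz2 was 0.405% in bone marrow, 0.658% in blood, 0.607% and 0.631% in the spleen libraries and 1.1% in the joint without macrophage-marker cells, and 1.04% in the joint with the S100 limit. With granule and S100 UMIs left out of the total it was 0.595% in bone marrow, 0.799% in blood, 0.708% in spleen, 0.75% in healthy blood of the inflammation library, 0.722% in K/BxN blood, 1.28% in the joint, 0.565% in lung and 0.575% in peritoneum. The causes were not tested. The removal of cells by 11 macrophage markers, the restriction to genes listed in all run 1 tables or to 3 libraries, and TMM scaling of the other lysosome genes were chosen after seeing the data.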
